A study of Mus musculus with 3 samples.

Results

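The simple epithelial keratin genes Krt7, Krt8, Krt18 and Krt19 were read in the germ layers of ICR mouse embryos at E7.5, on 3 Affymetrix mouse expression arrays, 1 each for endoderm, mesoderm and epiblast. The layers were peeled apart with enzyme and needles from the embryonic region, after the extra-embryonic part and Reichert's membrane had been taken away. The epiblast sample also held the neuroectoderm and the primitive streak, and the number of embryos behind each sample was not stated in the sources read here. All animals were of the same strain, with no mutation and no treatment named in the labels. These are 4 of the 18193 genes that the platform annotation names by a single symbol, and they are read by 6 probe sets, each a group of short probes against the same transcript. Krt8 has 3 of them and the other members have 1 each. The members were chosen by name with earlier results of these arrays known, and Krt8 and Krt18 were selected on their mesoderm and epiblast values, so their differences are given here as a description. With a single array per layer there is no replicate error and no test between layers.

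Keratins build the intermediate filaments of epithelial cells. A type I chain always pairs with a type II chain, and in simple, single-layered epithelia the usual pair is keratin 18 (type I) with keratin 8 (type II). This pair is the earliest to appear in the mouse embryo, in the trophectoderm. Keratin 7 (type II) and keratin 19 (type I) join it in ducts, in trophoblast and in many lining epithelia. Keratins are usually lost when epithelial cells become mesenchymal, while vimentin, the filament protein of mesenchyme, is gained. The filaments are anchored at desmosomes through desmoplakin and plakoglobin.

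The genes of the main pair lie side by side. In the RefSeq gene order of the mouse (GRCm38.p6), Krt18 is the next protein-coding gene after Krt8 on chromosome 15, Krt7 is on the same chromosome between Krt80 and Krt87, and Krt19 is on chromosome 11 between Krt15 and Krt9. Promoter windows of RefSeq, which span 250 bases before to 50 bases after the annotated start, were given for 3 of the 4 members. All 3 are shown. In each, printed 5′ to 3′ on the strand of the gene, capitals mark matches on either strand to TATAAA (the TATA box), GGGCGG (the GC box) and CAGGTG (the E-box form that repressors of the Snail and Zeb families bind in the Cdh1 promoter).
Krt8, chr15:102004293-102004592, minus strand, GRCm38.p6: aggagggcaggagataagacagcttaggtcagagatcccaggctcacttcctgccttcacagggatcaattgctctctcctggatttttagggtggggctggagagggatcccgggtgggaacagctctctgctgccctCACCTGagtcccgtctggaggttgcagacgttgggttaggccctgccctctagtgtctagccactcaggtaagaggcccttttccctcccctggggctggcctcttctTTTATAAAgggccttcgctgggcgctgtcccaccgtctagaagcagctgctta
Krt18, chr15:102027966-102028265, plus strand, GRCm38.p6: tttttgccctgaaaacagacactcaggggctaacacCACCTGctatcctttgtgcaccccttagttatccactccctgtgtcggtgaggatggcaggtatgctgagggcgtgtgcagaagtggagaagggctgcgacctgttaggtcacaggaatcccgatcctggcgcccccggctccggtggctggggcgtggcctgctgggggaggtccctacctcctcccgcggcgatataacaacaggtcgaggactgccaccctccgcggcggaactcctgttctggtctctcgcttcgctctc
Krt7, chr15:101412153-101412452, plus strand, GRCm38.p6: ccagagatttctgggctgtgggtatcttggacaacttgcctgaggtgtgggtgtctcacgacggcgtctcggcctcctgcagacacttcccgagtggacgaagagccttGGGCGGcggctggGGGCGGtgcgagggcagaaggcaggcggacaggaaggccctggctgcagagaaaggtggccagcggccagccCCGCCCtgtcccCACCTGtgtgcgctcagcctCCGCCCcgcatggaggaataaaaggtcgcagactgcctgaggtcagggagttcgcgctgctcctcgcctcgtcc

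All of the windows held 1 match to CAGGTG, which 20.2% of the 32851 RefSeq promoter windows of this length also hold. It began at base -111 of Krt8, -214 of Krt18 and -44 of Krt7, counted from the annotated start. The window of Krt8 was the only member window with TATAAA, in the stretch TTTATAAA that matches it on both strands (13.6% of all windows hold the motif). This stretch began at base -3 and so lay across the annotated start. The window of Krt7 held 4 matches to GGGCGG (35.7% of all windows), against 0 in Krt8 and Krt18. No match to TGANTCA, the site of AP-1, was found in the windows (7.81% of all). The core of Ets sites, AGGAAG, matched once each in Krt8 and Krt7 (35.4%). A core of GATA sites, AGATAA, matched once in Krt8 (11.2%). The CCAAT box matched nowhere (37.4%). The general E-box, CANNTG, covers the E-box form above and matched 3 times in Krt8 and once each in Krt18 and Krt7 (72.3%). These are matches of letters only and were not set against the expression values.

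Krt8, the type II chain of the pair, was highest in endoderm and lowest in epiblast on all 3 of its probe sets. The probe set that stands for the gene, the brightest by mean log2 over the arrays, read 9001 in endoderm, 4001 in mesoderm and 1136 in epiblast. The second read 8228 in endoderm, 3478 in mesoderm and 930.2 in epiblast, while the remaining one 5669.6, 2312 and 585 in the same order of layers. All of these are intensities on the deposited linear scale. The brightest is of the kind marked _a_at, made for several transcripts of the same gene, and the others are marked _x_at, which may share probes with other sequences. Each difference between layers was larger than its spread over the 3 probe sets. The log2 difference of mesoderm over epiblast was 1.82, 1.90 and 1.98 on the 3 probe sets, with a mean of 1.90 ± 0.084 (SD over probe sets, not over embryos), endoderm over epiblast was 3.14 ± 0.15 and endoderm over mesoderm was 1.24 ± 0.062. In such bulk samples more cells with keratin and more keratin RNA per cell cannot be told apart.

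Krt18, the type I partner, had the same order. It read 8193 in endoderm, 2739.7 in mesoderm and 1086.5 in epiblast on its only probe set. In mesoderm it was thus 2.52-fold above epiblast and 2.99-fold below endoderm, where Krt8 was 3.52-fold above epiblast and 2.25-fold below endoderm. Against epiblast, endoderm was 7.54-fold higher for Krt18 and 7.93-fold higher for Krt8.

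The gap between the partners was close to what different probe sets of a gene give. The log2 difference of Krt8 minus that of Krt18 was 0.07 for endoderm over epiblast, 0.48 for mesoderm over epiblast and -0.41 for endoderm over mesoderm. A single difference varied between probe sets of the same gene by 0.40, 0.27 and 0.39 (pooled SD over the 5536 genes that had more than 1 probe set above the floor), which for the gap between 2 genes makes 0.57, 0.38 and 0.55. The floor is an intensity of 80.6, which is the median over all probe sets and arrays. Values below it are taken as bounds, and a fold against such a value is written as at least N-fold.

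**Figure D1:**
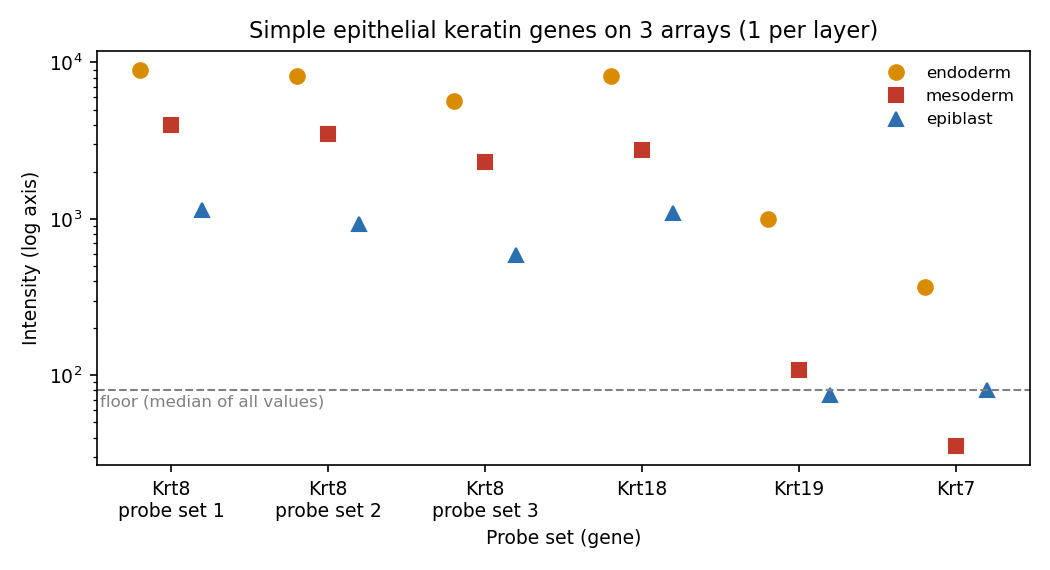
Intensity (log axis) of the 6 probe sets of Krt8, Krt18, Krt19 and Krt7 in endoderm, mesoderm and epiblast, 1 array per layer, with the floor of 80.6 as a dashed line. Krt8 and Krt18 step down from endoderm through mesoderm to epiblast, while Krt19 and Krt7 are far above the floor in endoderm only.

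Krt19, a type I chain that can replace keratin 18, was high in endoderm only. It read 998 in endoderm, 107 in mesoderm and 74.9 in epiblast, so that endoderm exceeded mesoderm 9.29-fold and epiblast at least 12.4-fold. Its mesoderm and epiblast values lay on either side of the floor, with mesoderm at least 1.33-fold higher. Krt7, the other type II chain, read 367 in endoderm, 35.05 in mesoderm and 80.1 in epiblast. Endoderm exceeded each of the other layers at least 4.55-fold. The mesoderm value of Krt7 was the lowest of its 3, opposite to Krt8, but both mesoderm and epiblast were below the floor and their difference of -1.19 (log2) became 0 when dim values were raised to the floor. Krt7 and Krt19 were not above the floor on all arrays, and Krt7 was above it in endoderm alone, so it passed the filter only through the layer where it was high.

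Counted at 2-fold among genes whose highest value was above the floor, endoderm exceeded epiblast for 4 of 4 members, where 12.5% of 12785 genes were higher and 4.01% were lower. Endoderm exceeded mesoderm for 4 of 4 members too (11.4% of all genes higher, 3.86% lower). In mesoderm, Krt8 and Krt18 were higher than in epiblast (3.44% of all genes), Krt19 was within 2-fold, and Krt7 was lower (3.25%) with both values below the floor. Of the 12785 genes, 142 had a larger mesoderm over epiblast difference than Krt8 and 275 a larger one than Krt18. Since the members were picked with these values known, nothing is read from these shares.

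The rest of the keratin family was mostly below the floor or within 2-fold between layers. Of 44 other keratin genes in the table, 27 were below the floor in all layers, among them Krt14 and Krt15 of stratified epithelia and Krt20 of the gut lining. A further 16 were within 2-fold between all layers, with the highest value at 408 (Krt42 in epiblast, read by a probe set marked _x_at). Krt5, a basal keratin of skin, read 129 in endoderm, 154 in mesoderm and 175 in epiblast, while Krt10, a keratin of differentiated skin, read 245, 258 and 278 in the same order of layers. The others of this kind were Krt1, Krt4, Krt6a, Krt12, Krt16, Krt17, Krt33b, Krt36, Krt75, Krt80, Krt81, Krt83 and Krt86. Krt23, a type I chain, was the exception. It read 158 in endoderm, 38.0 in mesoderm and 27.9 in epiblast, so that endoderm exceeded either other layer by 1.97-fold or more, the lower values being raised to the floor. As measured, its log2 difference was 2.51 for endoderm over epiblast and 2.06 for endoderm over mesoderm. Among the 21 keratin genes above the floor on at least 1 array, only Krt8 and Krt18 were 2-fold or more higher in mesoderm than in epiblast. The pair was selected on these values, so this is a description only.

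**Figure D2:**
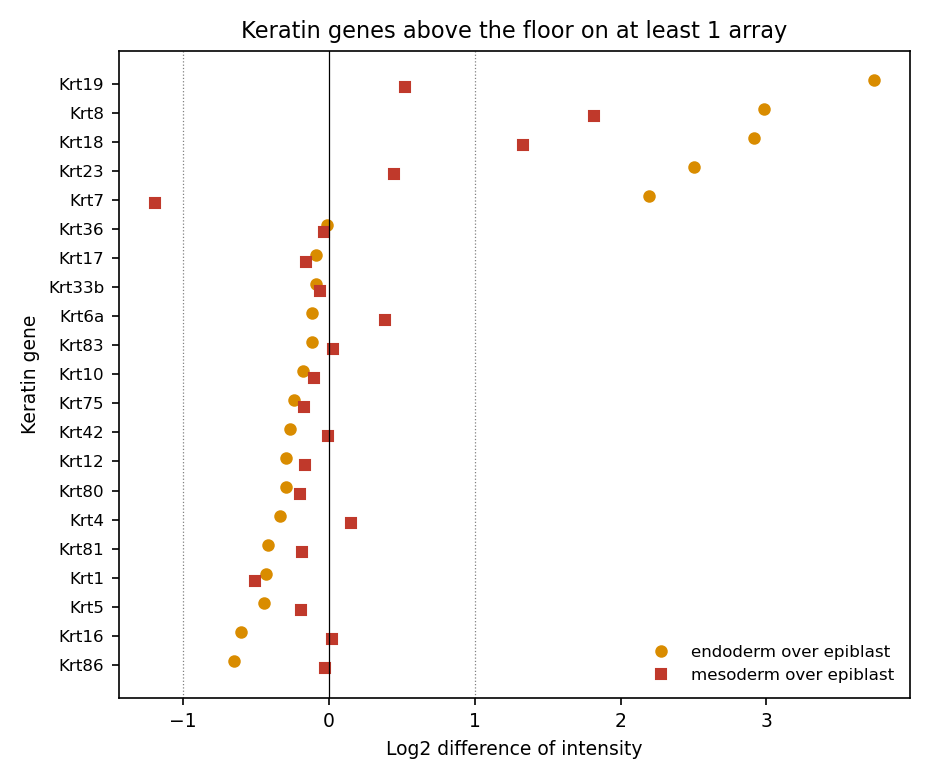
Log2 difference of endoderm over epiblast (circles) and of mesoderm over epiblast (squares) for the 21 keratin genes above the floor on at least 1 array, with dotted lines at 2-fold. The endoderm values of Krt19, Krt8, Krt18, Krt23 and Krt7 lie between 2.19 and 3.74, and in mesoderm Krt8 (1.82) and Krt18 (1.33) are the keratin genes past 2-fold upward.

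Krt8 and Krt18 stood against the other epithelial genes in mesoderm, which is how they were selected and so is a description only. Of 25 epithelial genes above the floor (of 28 listed, without keratins), 18 were 2-fold or more lower in mesoderm than in epiblast, 0 were 2-fold or more higher and 7 lay between. Over all genes 3.25% were lower and 3.44% higher. The 18 were counted as measured. Tjp3 among them had both values below the floor, and Ocln and Marveld2 were lower by at least 1.59-fold and 1.74-fold only. The median log2 difference of the 25 genes was -1.89, against -0.02 over all 12785 genes. Cldn6 and Cldn7, which seal tight junctions, were lower in mesoderm than in epiblast, by 18.7-fold or more for Cldn6 and 10.7-fold or more for Cldn7. Cdh1, the adhesion protein of epithelia (E-cadherin), read 4562 in endoderm, 250 in mesoderm and 4021 in epiblast. Marveld3, a tight junction protein, read 278 in endoderm, 14.1 in mesoderm and 242 in epiblast, at least 3.01-fold lower in mesoderm. Both further probe sets of Marveld3 were under the floor in all layers. In mesoderm 10 of the 25 genes were below the floor.

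None of the epithelial genes reached the 2-fold line upward in mesoderm over epiblast. Pard6b, of the apical polarity complex, read 1280.1 in endoderm, 880 in mesoderm and 668 in epiblast, the same order as Krt8, but its mesoderm over epiblast difference was 0.40. Llgl2, a basolateral polarity gene, read 959 in endoderm, 267 in mesoderm and 253 in epiblast, Lsr, of tricellular junctions, read 1510.4, 779 and 824, and Esrp2, an epithelial splicing factor, read 224 in endoderm with both other layers below the floor. These were the 4 epithelial genes with the highest mesoderm over epiblast differences, between -0.18 and 0.40. In endoderm 20 of 25 genes were higher than in mesoderm (11.4% of all genes), with a median of 2.74 (0.07 over all genes). Against epiblast, endoderm was higher for 11 (12.5% of all genes) and within 2-fold for 14, Cdh1 among them. The median was 0.90 (0.05 over all genes). In this comparison the 4 keratin genes were all past 2-fold.

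**Figure D3:**
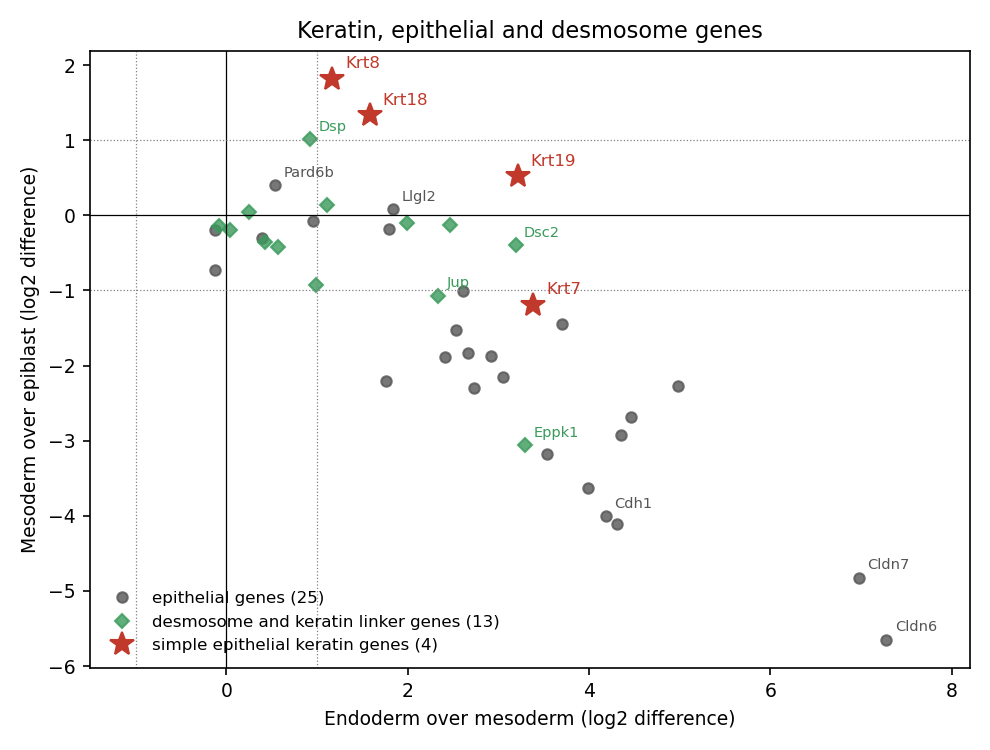
Mesoderm over epiblast against endoderm over mesoderm (log2 differences, dotted lines at 2-fold) for the 4 keratin genes (stars), 25 epithelial genes (circles) and 13 genes of desmosomes and keratin linkers (diamonds). The epithelial genes reach from 0.40 (Pard6b) down to -5.65 (Cldn6) on the vertical axis, Krt8 and Krt18 are above them at 1.82 and 1.33, and Dsp is nearest at 1.01.

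The proteins that tie keratin to desmosomes did not move as a block. Of 13 genes of desmosomes and keratin linkers above the floor, 6 were higher in endoderm than in epiblast (12.5% of all genes) and 6 were higher in endoderm than in mesoderm (11.4%). In either comparison 0 were lower in endoderm. Between mesoderm and epiblast, 1 was higher (3.44%), 2 were lower (3.25%) and the median was -0.19 (-0.02 over all genes). The higher one was Dsp, which encodes desmoplakin, the link between the desmosome and the keratin filament. It read 2523 in endoderm, 1333 in mesoderm and 662 in epiblast, the order of Krt8 and Krt18, and a second probe set read 1415, 1001 and 519.7 in the same order of layers. Its mesoderm over epiblast difference of 1.01 was at the 2-fold line. The second probe set gave 0.95, the remaining one was under the floor throughout, and quantile normalization (0.97), cyclic loess (0.99), an offset of 50 (0.96) and the mean of the probe sets (0.63) put the gene under 2-fold.

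Dsc2, Perp, Dsg2 and Pkp2 were 2-fold or more higher in endoderm than in either other layer. Their mesoderm and epiblast values were within 2-fold of each other, as for Krt19. Dsc2, a desmosomal cadherin, read 1343 in endoderm, 147 in mesoderm and 194 in epiblast, while Perp, a desmosomal membrane protein, read 559.5, 101 and 111. Dsg2, the desmosomal cadherin of simple epithelia, read 4396 in endoderm, 1108 in mesoderm and 1191 in epiblast, while Pkp2, a plaque protein, read 1305, 604 and 547 in the same order of layers. Between mesoderm and epiblast Dsg2 and Pkp2 had log2 differences of -0.10 and 0.14. Jup, which encodes plakoglobin, was 2.10-fold lower in mesoderm, at 134, against 281 in epiblast. Pkp4, a plakophilin relative, read 1583 in endoderm, 1332 in mesoderm and 1288 in epiblast. Plec, which encodes plectin, a linker between filament systems, read 493 in endoderm, 249.3 in mesoderm and 472 in epiblast, within 2-fold between mesoderm and epiblast (log2 -0.92), while Evpl, a plakin of the cornified envelope, was above the floor in endoderm only. Eppk1, a plakin that binds keratin in several epithelia, was counted lower too, but by at least 1.23-fold only, since its mesoderm value of 11.9 was below the floor. Of 5 hemidesmosome genes, which fix keratin to the basement membrane, Itgb4 and Col17a1 were below the floor in all layers, and Itga6 was lower in mesoderm, at 372, against 1250.0 in epiblast. Dst, a plakin, read 478 in endoderm, 426 in mesoderm and 715 in epiblast. The tetraspanin gene Cd151 had the order of Krt8, at 2150.1 in endoderm, 1016 in mesoderm and 726 in epiblast, but its mesoderm and epiblast values were within 2-fold.

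Vimentin, the filament protein of mesenchyme, was read beside the keratin pair and was highest in mesoderm. The brightest Vim probe set read 2206 in endoderm, 4882 in mesoderm and 2612 in epiblast, a mesoderm over epiblast difference of 0.90, and the others gave 1.28 and 1.41. Vim was therefore within 2-fold by the rule of the brightest probe set and past it on the other 2. Its order differed from that of Krt8 and Krt18, with mesoderm above endoderm (log2 -1.15 for endoderm over mesoderm). Of 14 intermediate filament genes above the floor, keratins left out and Vim included by its brightest probe set, 0 were 2-fold higher in mesoderm than in epiblast (3.44% of all genes). Of the 14, 4 were lower (3.25%), and the median was -0.17. The lower ones were the neuronal genes Nefh, Nefm, Ina and Nefl, for example Ina at 219 in endoderm, 389.6 in mesoderm and 1047 in epiblast. Nefh, below the floor in mesoderm, was lower by at least 1.86-fold only. The nuclear lamin genes Lmnb1 and Lmnb2 and the synemin gene Synm were within 2-fold between mesoderm and epiblast, for example Lmnb1 at 2752 in endoderm, 3509 in mesoderm and 3401 in epiblast. Of 13 mesenchymal genes above the floor, 9 were higher in mesoderm than in epiblast (median 1.56), as were 3.44% of all genes. Snai2, which represses epithelial genes, read 17.1 in endoderm, 802 in mesoderm and 52.2 in epiblast. Twist1, another such factor, the receptor gene Pdgfra and the cadherin gene Cdh11 followed, at log2 differences of 3.71, 2.43 and 1.91, and Zeb2, Col1a1, Col1a2 and Acta2 were the 4 that stayed within 2-fold.

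Genes for proteins that bind keratin or act on its turnover were mostly level. Of 12 above the floor, 1 was higher in mesoderm than in epiblast (3.44% of all genes) and 0 were lower (3.25%). The higher one was Prkce, a kinase that phosphorylates keratin 8 and 18 filaments in human cells. It read 219 in mesoderm and 48.0 in epiblast (at least 2.71-fold). The other 3 probe sets of Prkce were under the floor in all layers. Fam83h, which recruits casein kinase to keratin filaments, read 163 in endoderm and was below the floor in the other layers. Tradd, an adaptor that binds keratin 18, and the kinase gene Mapk14 were within 2-fold between mesoderm and epiblast (0.39 and 0.34), as were Sfn, Tchp, Ppp2r1a and Stub1, the lowest of the list (-0.31 to -0.03). Dnajb6, a chaperone of keratin 18, was level at 3118 in endoderm, 3215 in mesoderm and 2833 in epiblast.

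Transcription factors that have been linked to simple keratins or to epithelial states were mixed. Of 22 above the floor, 5 were 2-fold or more higher in mesoderm than in epiblast (3.44% of all genes) and 4 were lower (3.25%). Their median was -0.24, against -0.02 over all genes. Those higher were Gata6, Gata4, Ets1, Klf4 and Jun. Gata4, a factor of endoderm and heart, read 562 in endoderm, 274 in mesoderm and 40.4 in epiblast, the order of Krt8 and Krt18, and at least 3.40-fold higher in mesoderm than in epiblast. Gata6 read 645 in endoderm, 1079 in mesoderm and 63.9 in epiblast, while Ets1 read 90.4, 585 and 146 in the same order of layers. Jun, a part of AP-1, read 369.9 in endoderm, 388 in mesoderm and 185 in epiblast, while its second probe set gave 0.69 in place of 1.07. The lower ones were Grhl2, Tfap2a, Klf5 and Jund. Grhl2, an activator of epithelial genes, read 588 in endoderm, 137 in mesoderm and 615 in epiblast, while its 3 other probe sets were dim and within 2-fold between mesoderm and epiblast.

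The order of Krt8 and Krt18, 2-fold or more higher in endoderm than in mesoderm and likewise in mesoderm than in epiblast, was found in 75 of the 12785 genes (0.587%), Krt8 and Krt18 included. It was found in 0 of the 25 epithelial genes above the floor, and at so small a share a list of this size would seldom hold any. Of the 75 genes, 38 were above the floor on all arrays, again with the pair counted. By distance between profiles, each gene's log2 values minus their mean over the 3 arrays, the 10 genes nearest to the mean of Krt8 and Krt18 among 10956 genes above the floor on all arrays were Slc22a23, Col4a2, Arsa, Snx25, Pcgf5, Sgce, Tbx3, Serinc5, Ly75 and Zfp948, at 0.01 to 0.30. Slc22a23, a transporter gene, read 1531 in endoderm, 584 in mesoderm and 196 in epiblast. Col4a2, a collagen of basement membranes that is also among the parietal endoderm markers listed here, read 2663 in endoderm, 926 in mesoderm and 318 in epiblast, while Tbx3, a T-box factor, read 1489.8, 656 and 248 in the same order of layers. Krt8 and Krt18 were 0.37 apart by this measure, whereas Krt19, with epiblast below the floor, was 1.16 from Krt18. With 3 arrays the measure only describes these profiles, and many genes can come close by it.

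The genes nearest to Krt19 were Cd59a, B4galnt2, Gpx3, Ctsc and Arhgef3, at 0.23 to 0.25. Here genes below the floor on some arrays were included. B4galnt2 and Arhgef3 were above the floor in endoderm only, and the epiblast value of Krt19 was below it, so the list is a description only. Ctsc, a lysosomal protease, read 8636 in endoderm, 838 in mesoderm and 743 in epiblast. Those nearest to Krt7 were Foxj1, Hook2, Gstm1, Vamp8 and Rab20, at 0.08 to 0.18. Foxj1, the regulator of motile cilia, read 530.1 in endoderm, 48.7 in mesoderm and 120.2 in epiblast. The mesoderm and epiblast values of Krt7 were both below the floor and have no order there, so these neighbours rest on values not above background and are given as a description only.

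Since keratins are high in endoderm, markers of other cell types in the mesoderm sample were read beside them. Of 16 visceral endoderm markers, 16 were above the floor in endoderm and 9 each in mesoderm and epiblast, while their summed intensities were 91553 (endoderm), 3107 (mesoderm) and 2495 (epiblast). Between the epiblast level, set at 0%, and the endoderm level, set at 100% on the linear scale, mesoderm stood at 36.4% for Krt8, 23.3% for Krt18, 3.53% for Krt19 and -15.7% for Krt7 (0% with values raised to the floor). The visceral endoderm markers had a median of 0.134% in the same measure. Apob, Afp and Cubn were below the floor in mesoderm, Apoe had the highest place at 6.84%, and Lrp2 the lowest at -37.4%. Of the 16 visceral endoderm markers, 15 were at or below 5%, as were 2 of the 4 keratin genes. The keratin values were known when these levels were set, and the part of visceral endoderm cells in the keratin levels was not tested.

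Definitive endoderm markers were split. Of 9 that were 2-fold or more higher in endoderm than in epiblast, Cer1, Nepn and Hhex stood at 36.2%, 31.7% and 31.3%, and Prdm1 at 14.6%, while Sox17 was at 1.57% and Foxa1, Foxa2, Foxa3 and Trh were below 0%. With values raised to the floor, Cer1 stood at 35.8%, Hhex at 28.9%, Prdm1 at 5.03% and Nepn, which was below the floor in mesoderm and epiblast, at 0%. The summed intensities of the 12 markers were 18891 (endoderm), 2540.2 (mesoderm) and 1264 (epiblast), with 11, 6 and 4 of them above the floor. Cer1, at 1606 in mesoderm and 50.4 in epiblast on its brighter probe set, made up most of the mesoderm sum. Its other probe set read 1106 in endoderm, 232 in mesoderm and 20.2 in epiblast. Endoderm exceeded mesoderm 4.76-fold there, against 2.70-fold on the brighter one, so the place of Cer1 differs between its probe sets. The part of definitive endoderm cells in the keratin levels was not tested. Parietal endoderm, another keratin-bearing cell type, was read in the same way. Of 10 such markers, 7 were 2-fold or more higher in mesoderm than in epiblast (3.44% of all genes), Thbd by at least 1.69-fold only, its epiblast value being below the floor. The summed intensities were 17818 (endoderm), 8035 (mesoderm) and 3947 (epiblast), with 8, 9 and 6 of the markers above the floor. Pth1r, a hormone receptor, read 1548 in endoderm, 838 in mesoderm and 112 in epiblast, while Nid1, of basement membranes, read 768, 315 and 73.8 in the same order of layers. Lamb1, a laminin chain, was level between mesoderm and epiblast (1036 and 1039), as was Srgn, a proteoglycan of secretory granules, with both below the floor. Between endoderm and mesoderm, 4 of the 10 were higher in endoderm (11.4% of all genes) and 2 (Thbd and Stra6) were higher in mesoderm (3.86%). The other 4 were within 2-fold, and Col4a1, Col4a2 and Nid1 had the stepped order of Krt8 and Krt18. Many of these genes make basement membrane and are not limited to this cell type, and its part in the keratin levels was not tested. Of 10 trophoblast markers in the table, a cell type rich in all 4 keratins, Elf5, Tpbpa and Rhox9 were below the floor in all layers, and the sums were 2058, 1169 and 992 for endoderm, mesoderm and epiblast. Plac1 was the trophoblast marker that followed Krt8, at 1138 in endoderm, 305.5 in mesoderm and 68.2 in epiblast. It made up most of the endoderm sum, and the other 6 markers above the floor were within 2-fold between mesoderm and epiblast. Of 10 markers of allantois, amnion and mesothelium, 5 were below the floor in all layers (Wt1, Upk3b, Msln, Postn and Tbx4), and the summed intensities were 973 (endoderm), 2215 (mesoderm) and 903 (epiblast). Ahnak, at 321 in endoderm, 1319 in mesoderm and 174 in epiblast, made up most of the mesoderm sum. That is its brightest probe set, and its others were under the floor in all layers. Ahnak and Cdx4 (the latter at 7.52, 172 and 44.0) were 2-fold or more higher in mesoderm than in epiblast (3.44% of all genes). Gabrp, Upk1b and Pitx1 were within 2-fold. Of 6 node and notochord markers in the table, Foxj1 among them, 5 were 2-fold or more higher in endoderm than in epiblast (12.5% of all genes). Nog was among these by at least 1.05-fold only. Against mesoderm, 5 of the 6 were higher in endoderm (11.4%). The part of allantois, amnion, mesothelium, node or notochord cells in the keratin levels was not tested either.

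**Figure D4:**
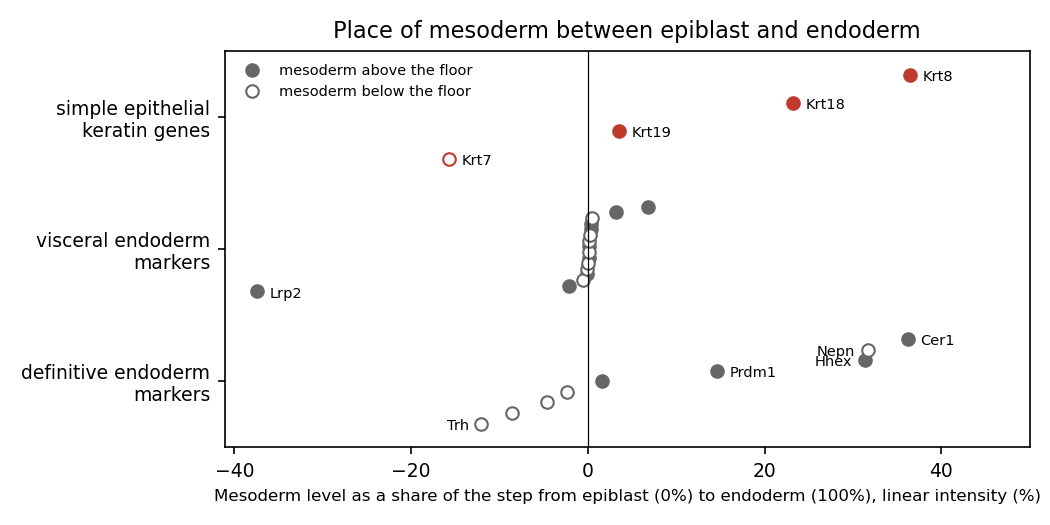
Place of the mesoderm level between epiblast (0%) and endoderm (100%) on linear intensity for the 4 keratin genes, 16 visceral endoderm markers and 9 definitive endoderm markers, with open symbols where mesoderm was below the floor. Krt8 is at 36.4% and Krt18 at 23.3%, and the visceral endoderm markers gather at 0% with a median of 0.134%. Cer1 reaches 36.2% on its brighter probe set.

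Markers of the labelled layers were read too. Of 13 nascent and paraxial mesoderm markers, 13 were lower in endoderm than in mesoderm (3.86% of all genes), and 8 were higher in mesoderm than in epiblast (3.44%). Of 12 epiblast and pluripotency markers, 11 were lower in mesoderm than in epiblast (3.25%), while Tdgf1 was not. In endoderm 5 of the 12 were lower than in epiblast (4.01% of all genes). The other 7 were within 2-fold, for example Eras at 1978 in endoderm and 2609.8 in epiblast. Against mesoderm, 5 were higher in endoderm (11.4%) and 3 were lower (3.86%). The part of epiblast cells in the endoderm sample was not tested. Median intensities over 45037 probe sets were 79.9 in endoderm, 79.9 in mesoderm and 82.2 in epiblast.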

How the data were processed

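RNA of endoderm, mesoderm and epiblast from E7.5 mouse embryos was hybridised to 1 array each. The deposited intensity values were made by the authors with Affymetrix console software and the affy package, using RMA for normalization and background. RMA usually ends in log2 values. These are linear, and which step made them so was not stated in the sources read here. Probe sets were named from the platform annotation (45037 in all, 34945 with a single symbol, 932 with several, 9160 without), with 34741 Entrez identifiers found in a RefSeq table and 0 symbols altered. For 9010 genes with several probe sets, that with the highest mean log2 stood for the gene. Intensities were turned into log2 and subtracted. A difference was counted from 2-fold for genes whose highest value was above 80.6, the median of all values. The study's methods name Significance Analysis of Microarrays, which needs replicates, so no p-value is given. The number of arrays sets the limit on precision, and the error given is the spread between probe sets.

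The members and the 18 gene lists (252 entries, 14 not analysed here) were chosen with earlier results of these data known. Genes were eligible to be named by a rule, and not all were named: every member probe set, every other keratin gene above the floor, of each list the 4 highest and 4 lowest mesoderm over epiblast differences, up to 4 markers per cell type, and the genes nearest in profile. Other names (Krt14, Krt15, Krt20, Dsc2, Perp, Dnajb6, Jun, markers beyond 4 per cell type, and all in the closing observations) were chosen after their values were seen. Alternatives were quantile normalization and cyclic loess (limma 3.58.1), housekeeping centring, other probe set rules, floors and folds, and an offset of 50. The counting was tested on simulated data. Promoter windows are from RefSeq (GRCm38.p6), and protein sequences were not used here. Python 3.11.15 and R 4.3.3 were used.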

Additional observations from a re-analysis of the deposited data

How the results depend on the processing

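No difference of the 4 keratin genes changed its sign under the alternatives, except that Krt7 in mesoderm over epiblast went to 0 once values under the floor were set to it. The differences of Krt8 and Krt18 stayed within the probe set spread under each of the 7 alternatives run for them, mesoderm over epiblast included. Those of Krt7 and Krt19, which rest on dim values, moved. Raising dim values to the floor put Krt7 at 2.19 for endoderm over mesoderm. An offset of 50 put Krt7 at -0.61 for mesoderm over epiblast, 1.68 for endoderm over epiblast and 2.29 for endoderm over mesoderm, and Krt19 at 3.07 and 2.73 for the endoderm comparisons. Quantile normalization lowered the median of all genes for endoderm over epiblast to -0.11, against 0.05 as deposited, and for endoderm over mesoderm to -0.08, against 0.07. Of the 10 genes nearest to Krt8 and Krt18, 9 were shared with it.

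The counts over all genes depend on the limits. With 1.5-fold they were 865 higher and 816 lower for mesoderm over epiblast, 2798 and 1168 for endoderm over epiblast, and 2583 and 1014 for endoderm over mesoderm, and 214 genes had the order of Krt8 and Krt18. With 3-fold they were 181 and 193, 774 and 182, and 767 and 220, with 9 genes of that order. Krt8 and Krt18 were not among these 9, since endoderm exceeded mesoderm 2.25-fold and 2.99-fold for them. An offset of 50 gave 291 higher and 275 lower for mesoderm over epiblast, 329 lower for endoderm over epiblast, and 36 genes of that order. A floor at the 75th percentile gave 266 lower for mesoderm over epiblast and 325 lower for endoderm over epiblast. The mean of probe sets gave 42 genes of that order. The cause of these shifts was not tested beyond what the limits themselves set. No paired analysis was possible because there was 1 array per layer.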

Other observations

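Of the genes with the order of Krt8 and Krt18, a few are given as values only, and they were named after their values were seen. Gpc3, a proteoglycan of growth control, read 6026 in endoderm, 2714 in mesoderm and 1061 in epiblast. Sgce, a sarcoglycan gene, read 1335 in endoderm, 466 in mesoderm and 200.4 in epiblast. Cldn2, a claudin outside the epithelial list, read 3026 in endoderm, 114 in mesoderm and 51.6 in epiblast. It was at least 1.41-fold higher in mesoderm than in epiblast, where Cldn6 and Cldn7 were lower, and its epiblast value was below the floor.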
